A study of Rattus norvegicus with 21 samples.

Results

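RNA was sequenced from whole liver of Wistar rats at day 63 (d63), and early weaned rats were set against control rats of the same age. There were 3 early weaned and 3 control libraries, 6 of the 21 samples in the series, taken by their labels and described over all genes. The other samples are Wistar livers at d23, 3 early weaned and 3 control, and Sprague Dawley livers at d211, the latter not used here. The d23 libraries were fitted together with those of d63, so they share in the filter and the estimate of spread. Their values are given only where the ages are compared. All rats of this comparison are of 1 strain, and the only difference the labels give is early weaning. The labels name neither the weaning day, the diet, the sex nor the hour of collection. Nor do they state whether each replicate is its own animal, so the p-values reflect the spread among the Wistar libraries of both ages alone, which may be technical. The series' title asks about lipid oxidation, cholesterol and obesity.

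Early weaning takes pups off milk, a fat-rich food, before the usual age, and the liver then has to handle a diet richer in carbohydrate. In the liver, the nuclear receptor PPARα drives the oxidation of fatty acids, SREBP factors drive the synthesis of lipids, and a circadian clock sets many metabolic genes to the hour of the day and to feeding. In that clock CLOCK and BMAL1 activate the Per and Cry genes, whose products in turn repress CLOCK and BMAL1. Adult rat liver also differs between the sexes in many cytochrome P450 and sulfotransferase genes, through the pattern of growth hormone release.

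The 6 libraries held 53165564 to 71638683 count units, with 10452 to 10901 genes at an FPKM of at least 1. FPKM is a fragment count scaled to transcript length and to the depth of the library. Liver identity was clear, with albumin transcripts (Alb) at 53907 to 60137 FPKM in every library. Control replicate 2 stood apart. Its correlation with the other 5 libraries was 0.959 to 0.966 over log2 CPM (counts scaled to library size), against 0.981 to 0.987 among those 5. In it 117 genes were at least 4-fold away from the mean of the other 5, 49 above and 68 below, against 23 to 43 such genes in each other library. Fold changes and list medians are therefore also given without it.

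Many of the genes that set control replicate 2 apart are known for sex-biased expression in rat liver. Cyp2c11, a male-predominant steroid hydroxylase, had 0.34 FPKM in control replicate 2, against 542 to 931 FPKM in the other 5 libraries. Cyp2c13, a related male-predominant enzyme, had 0.98 FPKM there, against 923 to 1379.7 FPKM in the others. Cyp2c12, the female-predominant member of that family, had 2368 FPKM there, against 12 to 96.6 FPKM in the others. These 3 genes are close in sequence, and reads shared between them could be split between entries. The major urinary protein gene Mup5, the estrogen sulfotransferase Sult1e1, the steroid dehydrogenase Hsd3b5 and the anion transporter Slc22a8 were far lower there too, each at no more than 1.47 FPKM, against at least 89.0 FPKM in every other library. A1bg, the prolactin receptor Prlr and the coregulator Trim24 were far higher there, at 197, 114 and 33.2 FPKM. The Y-linked genes Eif2s3y and Kdm5d had no counts there, against 9.33 to 11.4 and 3.04 to 3.70 FPKM in the other 5. A summed count of 0 for these 2 genes allows up to 12 units, taken here as 3 fragments. The other 5 libraries had 2264 to 3057 units. The part of the genes named here in the results below was not tested beyond leaving control replicate 2 out.

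**Figure D1:**
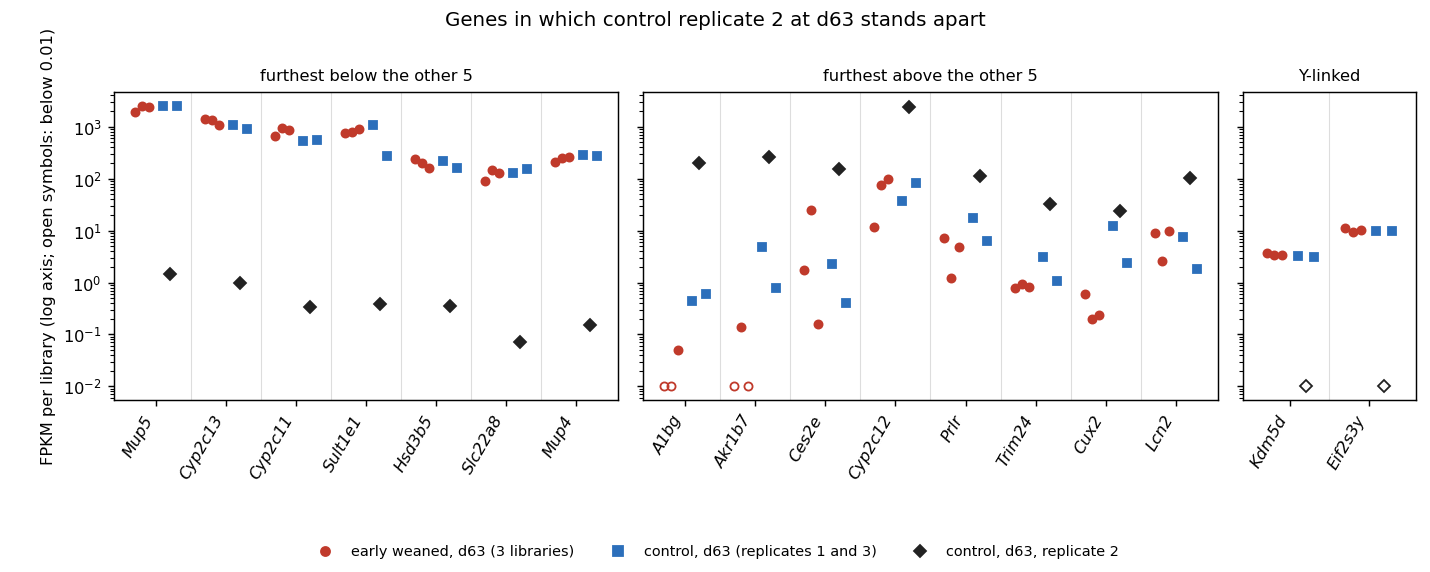
FPKM in each d63 library on a log axis for the genes furthest below and above the other 5 libraries in control replicate 2, and for 2 Y-linked genes; open symbols lie below 0.01 FPKM. Early weaned libraries are red circles, control replicates 1 and 3 blue squares and control replicate 2 black diamonds, which sit alone at 0.34 FPKM for Cyp2c11 and at 2368 FPKM for Cyp2c12.

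With all 6 libraries, not 1 gene differed past edgeR's threshold. By edgeR's quasi-likelihood test, 0 of 15416 genes (0%) had a Benjamini-Hochberg adjusted p below 0.05, and the smallest adjusted p was 0.279. At an unadjusted p below 0.05 there were 933 genes (6.05%), 328 higher (2.13%) and 605 lower (3.92%) in early weaned livers. In 1472 genes (9.55%) every early weaned library was above every control, and in 1417 (9.19%) every one was below. Such separation is judged here on CPM with edgeR's TMM scaling, which lifts the early weaned libraries a little relative to the deposited FPKM, so a gene near the border can be apart on one scale and overlap on the other. The median log2 fold change over all genes was −0.01. DESeq2 called 89 of 16003 genes (0.556%), 28 higher (0.175%) and 61 lower (0.381%), and of the 88 of these that edgeR tested, 81 had an unadjusted edgeR p below 0.05. Without control replicate 2, edgeR called 1 of 15823 genes (0.00632%) and had 780 at an unadjusted p below 0.05 (4.93%), 278 higher (1.76%) and 502 lower (3.17%). DESeq2 then called 57 of 15894 genes (0.359%), 37 of them among the 89. The groups then did not overlap in 2252 genes on the higher side (14.6%) and 2307 on the lower side (15%). Fold changes below are thus measured differences that did not pass edgeR's test, unless a call is stated.

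Among the genes of smallest p that were higher after early weaning were a xenobiotic-metabolizing enzyme, a secreted protease inhibitor and 2 clock repressors. Cyp1a1, the cytochrome P450 induced by the aryl hydrocarbon receptor, had 2.08, 2.01 and 4.04 FPKM in early weaned replicates 1 to 3, against 0.57, 0.11 and 0.34 FPKM in control replicates 1 to 3. Every early weaned library was above every control, at a low level throughout. The log2 fold change of Cyp1a1 was 3.08 (SE 0.59, edgeR adjusted p = 0.48), or 2.65 (SE 0.54, edgeR adjusted p = 0.614) without control replicate 2, and DESeq2 called it in both cases (adjusted p = 3.3e-05 and 0.000154). Serpina4, the gene of the secreted inhibitor known in humans as kallistatin, had 667, 691 and 703 FPKM in early weaned livers, against 423, 389 and 474 FPKM in controls. It is an abundant liver transcript with little spread in either group, 687 ± 18.5 and 428 ± 42.7 FPKM (SD, n = 3 each). This came to a log2 fold change of 0.77 (SE 0.15, edgeR adjusted p = 0.48), and 0.71 (adjusted p = 0.713) without control replicate 2.

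The other higher genes of this group had log2 fold changes of 0.51 to 1.17. Gbe1, the glycogen branching enzyme, had 35.5, 54.3 and 49.7 FPKM in early weaned livers, against 31.1, 24.6 and 27.6 FPKM in controls, with a log2 fold change of 0.83, or 0.75 without control replicate 2. Pcca, a subunit of the propionyl-CoA carboxylase that handles the end products of odd-chain fatty acids and of some amino acids, had 20.1, 23.6 and 20.9 FPKM, against 15.7, 11.6 and 13.7 FPKM in controls, and log2 fold changes of 0.75 with and 0.64 without that library. Bmt2, which encodes an S-adenosylmethionine sensor upstream of mTORC1, and the mitochondrial carrier gene Slc25a48 had log2 fold changes of 0.87 and 1.17, or 0.75 and 0.98 without it. The phosphoinositide phosphatase gene Sacm1l and the microtubule adaptor gene Hook1 had 0.51 and 0.53, or 0.51 and 0.47 without it. The 10 genes, the Cry1 and Per2 genes described below among them, had edgeR adjusted p-values of 0.48. DESeq2 called 10 of them with all controls and 5 without control replicate 2, against 0.556% and 0.359% of all genes. The genes were chosen by edgeR's p on the same counts, so these calls are not independent support. Since these genes were chosen for groups that do not overlap, their direction cannot turn when a control is left out.

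Zbtb16 had the smallest p of all genes and was lower after early weaning. It encodes the zinc finger factor PLZF and is induced by glucocorticoids in many cells. The 17 glucocorticoid-induced genes listed, Zbtb16 among them, were split, with 7 higher and 10 lower. Their median log2 fold change was −0.29, or −0.01 without control replicate 2. Zbtb16 had 0.39, 0.19 and 0.86 FPKM in early weaned livers, against 13.1, 14.7 and 6.09 FPKM in controls. The groups were far apart and every library of each group lay on its side. The log2 fold change was −4.45 (SE 0.64, edgeR adjusted p = 0.279), and −4.21 (SE 0.67, adjusted p = 0.352) without control replicate 2. DESeq2 called it with and without that library, at adjusted p-values of 6.02e-12 and 7.51e-08. At d23 the same gene had 7.63, 16.7 and 17.9 FPKM in early weaned livers and 11.4, 11.3 and 4.49 FPKM in controls, so the low d63 early weaned values lie below all 9 other Wistar libraries. The deposited table places Zbtb16 (ENSRNOG00000029980) on chromosome 8 at 52985313 to 53146953, on the minus strand, and does not name its genome build or mark exons.

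Other lower genes were more uneven within the control group. Hba-a3, an alpha-globin gene, had no counts in the 3 early weaned libraries, against 22.7, 3.48 and 56.6 FPKM in controls. It was at least 57.5-fold lower, taking 3 fragments per library as the floor, and at least 82.6-fold lower without control replicate 2. This is the gene that edgeR called without control replicate 2 (adjusted p = 0.00916, against 0.279 with it). It is near-identical to Hba-a1, which had 1753, 428 and 413 FPKM in early weaned livers and 1068, 352 and 4049 FPKM in controls, so the placing of reads between these entries is uncertain. Cux2, a transcription factor gene with female-predominant expression in rat liver, had 0.60, 0.20 and 0.24 FPKM, against 12.3, 24.2 and 2.41 FPKM in controls. The Cux2 log2 fold change was −5.14, or −4.33 without control replicate 2, in which it was highest. Akr1b7, an aldo-keto reductase gene, had 0, 0.14 and 0 FPKM, against 4.82, 261 and 0.77 FPKM, so that control replicate 2 set most of the control level. At 0 to 0.14 FPKM in early weaned livers its fold change rests on next to no fragments and is not given.

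The remaining lower genes were closer between the groups. Cd4, a T cell gene that rat macrophages also express, had 6.16, 6.46 and 6.10 FPKM in early weaned livers, against 12.1, 9.91 and 9.68 FPKM in controls, a log2 fold change of −0.68, or −0.72 without control replicate 2. In bulk liver, fewer cells of a type and less RNA per cell cannot be told apart. Fpgs, which traps folates in cells by adding glutamates, had 27.2, 17.6 and 25.9 FPKM, against 37.6, 47.2 and 44.9 FPKM in controls, a log2 fold change of −0.79, or −0.72 without that library. Tbc1d2, a regulator of Rab GTPases, had 3.20, 2.63 and 3.42 FPKM, against 6.42, 6.82 and 6.71 FPKM (log2 fold change −1.02, or −1.0 without that library). The phosphoinositide phosphatase gene Synj2, the transporter gene Flvcr2 and the phosphatase 2A scaffold gene Ppp2r1b had log2 fold changes of −2.06, −1.37 and −1.65, each with its highest value in control replicate 2. Without that library their values were −1.66, −0.86 and −1.11. The 10 lower genes had edgeR adjusted p-values of 0.279 to 0.48. DESeq2 called 9 of them, or 6 without control replicate 2, against 0.556% and 0.359% of all genes. With all controls DESeq2 gave Akr1b7 no p, and it was among the 6. These genes too were chosen by edgeR's p on the same counts, so the calls are not independent support.

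**Figure D2:**
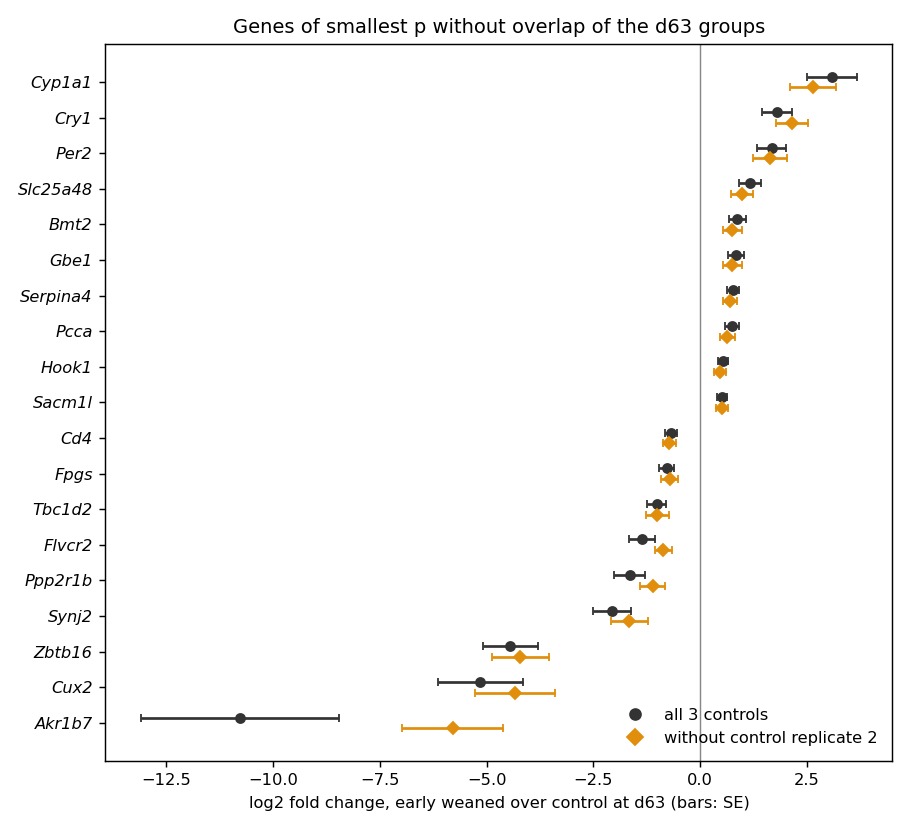
Log2 fold change of early weaned over control d63 livers for 19 of the 20 genes of smallest p whose groups do not overlap, with all 3 controls (black circles) and without control replicate 2 (orange diamonds); bars are standard errors, and Hba-a3, with no counts in early weaned livers, is left out. The choice of genes fixes the side of 0 on which each lies. Akr1b7, at no more than 0.14 FPKM in early weaned livers, moves most when control replicate 2, at 261 FPKM, is left out.

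With control replicate 2 left out, a further set of genes moved to the front, some of which this control alone held near the early weaned level. Ednra, the endothelin A receptor, had 0.70, 0.21 and 0.25 FPKM in early weaned livers, against 5.98 and 4.62 FPKM in control replicates 1 and 3 and 0.30 FPKM in control replicate 2. Its log2 fold change was −3.14 with that library (edgeR adjusted p = 0.626) and −3.69 without it (adjusted p = 0.0671). Slc35c2, a Golgi transporter gene, had 16.2, 7.16 and 6.52 FPKM, against 44.5 and 48.8 FPKM in control replicates 1 and 3 and 7.82 FPKM in control replicate 2. Rec114, a meiotic recombination gene, had no counts in early weaned livers or in control replicate 2, against 2.87 and 2.02 FPKM in the other controls, at least 11.4-fold lower without control replicate 2. Abcg8, a subunit of the sterol exporter that sends cholesterol into bile, had 1.97, 1.70 and 1.50 FPKM, against 5.98 and 3.92 FPKM in those controls and 1.75 FPKM in control replicate 2. Higher genes that came forward were Gpsm2, a spindle orientation gene (log2 fold change 1.19 without control replicate 2), Prkab1, a subunit of the energy sensor AMPK (1.12), the bile acid enzyme gene Hsd3b7 (0.89) and Zfp629 (1.10). For all of these genes but Ednra the edgeR adjusted p without control replicate 2 was at least 0.352.

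Genes of the circadian clock were mostly higher after early weaning, led by repressors. Of 14 core clock genes tested, 11 were higher and 3 lower, with a median log2 fold change of 0.53, against −0.01 over all genes. In 5 of them every early weaned library was above every control and in 1 every one was below, against 9.55% and 9.19% of all genes. Without control replicate 2 the median was 0.71, and over leaving out each d63 library it ran between 0.35 and 0.71. None passed edgeR's test, 3 had an unadjusted p below 0.05, and DESeq2 called Cry1 and Per2.

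Cry1, the cryptochrome repressor, had 1.51, 2.22 and 3.70 FPKM in early weaned livers, against 0.69, 1.09 and 0.50 FPKM in controls. That is a log2 fold change of 1.80 (SE 0.35, edgeR adjusted p = 0.48), or 2.15 (adjusted p = 0.352) without control replicate 2. Per2, the period repressor, had 6.09, 8.71 and 15.4 FPKM, against 2.90, 3.18 and 4.02 FPKM in controls, with a log2 fold change of 1.68 (SE 0.33, edgeR adjusted p = 0.48), or 1.64 (adjusted p = 0.713) without control replicate 2. In both genes early weaned replicate 3 was highest and replicate 1 lowest, and all 3 exceeded the controls. Per3 showed the same order, with 3.23, 5.14 and 6.54 FPKM, against 1.60, 2.68 and 2.84 FPKM in controls, and log2 fold changes of 1.16 with and 1.26 without control replicate 2. On the activator side, Npas2 had 1.08, 0.60 and 0.10 FPKM, against 2.47, 2.12 and 1.27 FPKM in controls, a log2 fold change of −1.65, or −1.59 without control replicate 2. Arntl, which encodes BMAL1, had 3.0, 1.20 and 0.57 FPKM, against 3.19, 4.09 and 2.20 FPKM, and its groups overlapped. Here early weaned replicate 3 was lowest and replicate 1 highest, the reverse of Cry1, Per2 and Per3.

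Clock output factors, which carry the rhythm to metabolic genes, were higher in 8 of 10 cases with a median log2 fold change of 0.38, or 0.35 without control replicate 2. Dbp, a PAR bZIP activator, had 58.2, 86.9 and 80.4 FPKM, against 29.6, 30.3 and 60.6 FPKM in controls (log2 fold change 1.0, edgeR adjusted p = 0.717, or 0.84 without that library). Tef, a factor of the same family, had 18.1, 19.9 and 23.2 FPKM, against 13.8, 9.72 and 19.0 FPKM in controls, a log2 fold change of 0.62, or 0.41 without that library. Wee1, a cell cycle kinase under clock control, had 1.02, 1.45 and 3.31 FPKM, against 0.55, 0.68 and 0.90 FPKM, a log2 fold change of 1.54, or 1.50 without that library. In Wee1 the groups did not overlap, while in Dbp and Tef early weaned replicate 1 lay just below control replicate 3 in FPKM and just above it after TMM scaling. Nr1d1, the repressor REV-ERBα, had 53.2, 42.7 and 26.6 FPKM, against 52.0, 34.9 and 60.1 FPKM in controls, with full overlap. The median of the output factors ran from −0.06 without early weaned replicate 3 to 0.65 without early weaned replicate 1. The median of the core clock list by library, relative to the control mean on the log2 scale, was 0.19, 0.42 and 0.86 in early weaned replicates 1 to 3, against −0.01, 0.10 and −0.09 in controls. The hour of collection is not in the labels, and its part in these values was not tested.

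The promoters of Per2, Tef and Ciart are shown because these clock genes were higher in the mean of the early weaned livers and hold the motifs through which clock factors are known to act. Ciart, a clock repressor, had 0.98, 2.79 and 3.04 FPKM in early weaned livers, against 1.08, 0.32 and 1.02 FPKM in controls, and its groups overlapped. The sequences are from RefSeq on build GRCr8, 250 bases before to 50 after the start, 5′ to 3′ on the gene's strand. They lie at chr9:99496944-99497243 on the minus strand, chr7:115206577-115206876 on the plus strand and chr2:186112197-186112496 on the minus strand. Capitals mark the E-box CACGTG bound by CLOCK and BMAL1, the E-prime box CACGTT and the D-box TTATGTAA bound by PAR bZIP factors, each searched on both strands.
Per2 promoter: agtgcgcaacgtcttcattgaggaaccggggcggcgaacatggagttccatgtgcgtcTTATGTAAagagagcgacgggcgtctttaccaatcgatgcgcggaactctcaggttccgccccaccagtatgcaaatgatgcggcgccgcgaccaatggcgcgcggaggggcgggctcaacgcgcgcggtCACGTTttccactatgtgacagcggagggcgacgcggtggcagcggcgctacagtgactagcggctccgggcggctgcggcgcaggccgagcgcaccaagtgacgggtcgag
Tef promoter: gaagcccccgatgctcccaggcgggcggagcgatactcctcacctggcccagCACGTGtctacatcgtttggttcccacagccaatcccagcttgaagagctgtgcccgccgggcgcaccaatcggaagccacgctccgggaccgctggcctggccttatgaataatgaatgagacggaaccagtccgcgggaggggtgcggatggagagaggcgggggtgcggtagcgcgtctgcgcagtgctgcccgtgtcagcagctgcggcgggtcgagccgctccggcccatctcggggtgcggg
Ciart promoter: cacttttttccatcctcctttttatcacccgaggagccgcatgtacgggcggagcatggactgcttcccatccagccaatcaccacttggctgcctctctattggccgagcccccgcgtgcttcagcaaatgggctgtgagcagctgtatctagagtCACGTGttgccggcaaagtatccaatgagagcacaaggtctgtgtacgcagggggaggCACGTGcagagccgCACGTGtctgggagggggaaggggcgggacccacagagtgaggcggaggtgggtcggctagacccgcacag
Per2 holds 1 E-prime box and 1 D-box, Tef holds 1 E-box and Ciart holds 3. Per3 and Dbp, also higher in the mean, hold none of these motifs in their promoter entries. Nr1d1, with a log2 fold change of −0.18, holds an E-box in 1 promoter entry and an E-prime box in another. Of 27 clock genes listed, 19 had a promoter entry, and 5, 3 and 1 of these held an E-box, an E-prime box and a D-box. Of all 33469 promoter entries 6.42%, 4.83% and 0.893% hold these motifs, so a match describes the sequence and is not a measured binding site.

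**Figure D3:**
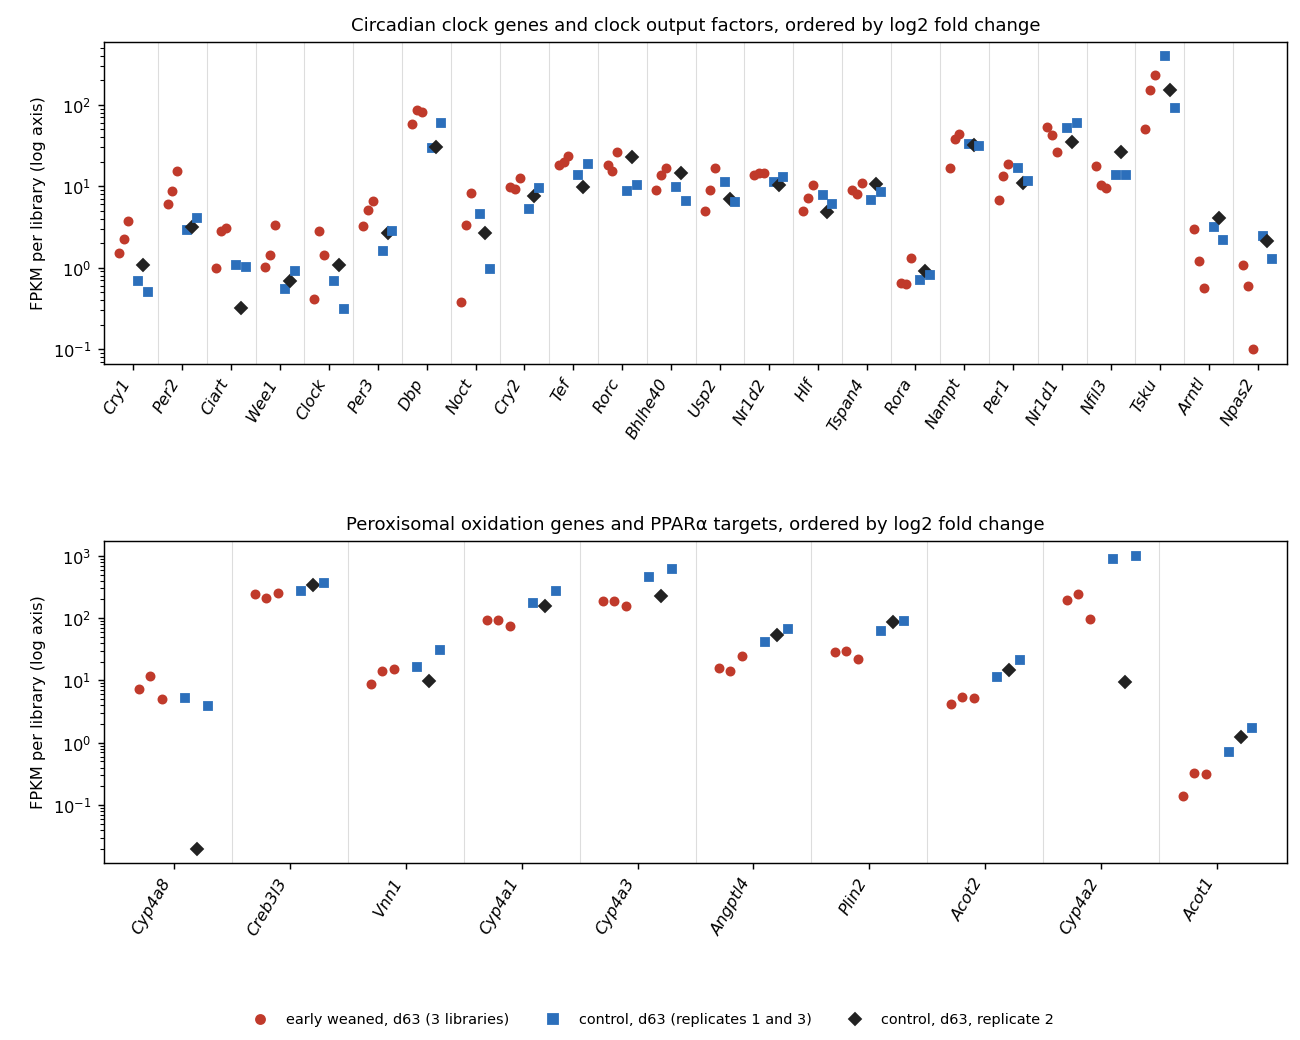
FPKM in each d63 library on a log axis for clock genes (top) and for the peroxisomal oxidation and PPARα target genes whose groups did not overlap with or without control replicate 2 (bottom), each ordered from the highest to the lowest log2 fold change. Early weaned libraries are red circles, control replicates 1 and 3 blue squares and control replicate 2 black diamonds; Per2 has 6.09 to 15.4 FPKM in early weaned livers, above the controls at 2.90 to 4.02, and Angptl4 has 14.1 to 24.5 FPKM, below the controls at 41.5 to 66.6.

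Genes of peroxisomal oxidation and PPARα targets, listed together with Ppara itself, were mostly lower after early weaning. Of 25 genes tested, 19 were lower and 6 higher, with a median log2 fold change of −0.32, or −0.39 without control replicate 2. In 7 of them every early weaned library was below every control, against 9.19% of all genes, and in 1 every one was above. None passed edgeR's test, and 4, all lower, had an unadjusted p below 0.05. Over leaving out each d63 library the median ran between −0.50 and −0.19.

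Angptl4, a secreted inhibitor of lipoprotein lipase, had 15.6, 14.1 and 24.5 FPKM in early weaned livers, against 41.5, 53.1 and 66.6 FPKM in controls. Its log2 fold change was −1.48 with and without control replicate 2 (SE 0.35 with it, edgeR adjusted p = 0.505), and DESeq2 called it with all controls (adjusted p = 0.013). Cyp4a1, a fatty acid ω-hydroxylase, had 95.1, 93.7 and 75.0 FPKM, against 174, 154 and 275 FPKM, a log2 fold change of −1.10, or −1.26 without control replicate 2. The related Cyp4a3 had 186, 186 and 154 FPKM, against 466, 227 and 613 FPKM, with log2 fold changes of −1.22, and −1.53 without control replicate 2. Cyp4a2, its close copy, is on the list of male-biased liver genes described below. It had 196, 244 and 96.3 FPKM, against 886 and 1008 FPKM in control replicates 1 and 3 and 9.41 FPKM in control replicate 2. Its log2 fold change was −1.74 with that library (DESeq2 adjusted p = 0.808) and −2.32 without it (DESeq2 adjusted p = 3.28e-05). Reads that Cyp4a2 and Cyp4a3 share could be split between them. The acyl-CoA thioesterase genes Acot2 and Acot1 had log2 fold changes of −1.56 and −2.15, or −1.61 and −2.15 without control replicate 2, and Plin2, a lipid droplet coat gene, had 28.9, 29.3 and 22.0 FPKM, against 62.7, 88.3 and 89.1 FPKM in controls, with log2 fold changes of −1.49 with and −1.41 without that library. The groups did not overlap in any of these genes but Cyp4a2.

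Other genes around this pathway, among them Ppara and Fgf21 of the list above, varied in how far the groups differed. Ppara itself had 10.4, 11.8 and 15.6 FPKM in early weaned livers, against 15.5, 10.8 and 23.6 FPKM in controls, and the groups overlapped. Fgf21, a fasting hormone, had 3.66, 5.55 and 1.34 FPKM, against 5.75, 7.66 and 15.7 FPKM in controls, and control replicate 3 stood highest. The 19 genes of mitochondrial β-oxidation were split, 8 higher and 11 lower, with a median log2 fold change of −0.03, or −0.08 without control replicate 2. Among them Slc22a5, the carnitine importer, had 3.82, 3.16 and 4.13 FPKM, against 7.20, 11.7 and 8.51 FPKM in controls, without overlap. Its log2 fold change was −1.21 (SE 0.28, edgeR adjusted p = 0.48), or −0.99 without control replicate 2. DESeq2 called Slc22a5 with all controls (adjusted p = 0.0147) but not without control replicate 2 (adjusted p = 0.189). Cpt1a, which admits long-chain fatty acids to mitochondria, had 80.3, 85.9 and 103 FPKM, against 94.8, 127 and 205 FPKM, and overlapped. Echs1, an enoyl-CoA hydratase, was on the higher side, with 113, 93.1 and 100 FPKM, against 86.2, 83.0 and 76.5 FPKM in controls (log2 fold change 0.40, or 0.42 without control replicate 2).

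Genes of lipid synthesis were split in direction. Of 23 genes of fatty acid and triglyceride synthesis, 11 were higher and 12 lower, with a median of −0.04, or 0.06 without control replicate 2. Srebf1, the gene of the factor SREBP-1 that drives them, had 47.2, 42.6 and 25.3 FPKM, against 20.6, 25.5 and 8.45 FPKM in controls, with log2 fold changes of 1.15 (edgeR adjusted p = 0.717) and 1.48 without control replicate 2. Insig2, which holds SREBP in the endoplasmic reticulum, had 103, 69.3 and 78.1 FPKM, against 136, 153 and 167 FPKM, a log2 fold change of −0.78, or −0.77 without that library. The groups did not overlap in Insig2, while in Srebf1 early weaned replicate 3 lay just below control replicate 2 in FPKM and just above it after TMM scaling. Fasn, the fatty acid synthase, had 3.61, 6.98 and 13.9 FPKM, against 7.49, 8.40 and 2.21 FPKM, and Scd, the stearoyl-CoA desaturase, had 2.52, 70.3 and 80.2 FPKM, against 14.0, 11.7 and 7.11 FPKM. Early weaned replicate 1 thus stood below the controls for Scd while the other 2 stood above.

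Cholesterol synthesis genes were spread widely within groups. Of 25 cholesterol synthesis genes 17 were higher, with a median of 0.08, or 0.17 without control replicate 2. Leaving out early weaned replicate 3 gave −0.50, and leaving out early weaned replicate 1 gave 0.37. Of 21 genes of bile acid synthesis and transport 13 were higher, with a median of 0.12, or 0.16 without control replicate 2. Cyp7a1, which sets the rate of bile acid formation from cholesterol, had 50.9, 18.0 and 58.9 FPKM, against 57.3, 7.73 and 12.7 FPKM, with overlap. Hsd3b7, which acts in the steps after it, had 46.7, 55.7 and 68.7 FPKM, against 30.5, 40.2 and 35.3 FPKM (log2 fold change 0.78, edgeR adjusted p = 0.576, or 0.89 without control replicate 2). Abcb4, the phospholipid exporter into bile, had 8.97, 8.77 and 7.33 FPKM, against 14.7, 21.9 and 16.6 FPKM, a log2 fold change of −1.0, or −0.81 without that library. The groups did not overlap in these 2 genes. Of 21 genes of glucose metabolism 13 were higher, with a median of 0.14, or 0.12 without control replicate 2, and G6pc, which releases glucose from the liver, had 95.8, 95.1 and 96.9 FPKM, against 142, 150 and 389 FPKM in controls (log2 fold change −1.15, edgeR adjusted p = 0.793). Without control replicate 2 its log2 fold change was −1.37, and without control replicate 3 it was −0.53.

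Genes of the urea cycle and of amino acid breakdown were higher in 20 of 24 cases, with a median log2 fold change of 0.37, or 0.42 without control replicate 2. In 13 of them every early weaned library was above every control, or 16 without that library, against 9.55% and 14.6% of all genes, and in 0 every one was below. None passed edgeR's test, 3 had an unadjusted p below 0.05, and DESeq2 called 0. Sds, serine dehydratase, had 158, 96.1 and 154 FPKM in early weaned livers, against 42.6, 80.1 and 49.2 FPKM in controls, with a log2 fold change of 1.34 (SE 0.58, edgeR adjusted p = 0.793), or 1.66 without control replicate 2. Bckdhb, a subunit of the branched-chain keto acid dehydrogenase, had 45.8, 51.5 and 54.8 FPKM, against 44.9, 36.8 and 29.2 FPKM, a log2 fold change of 0.54 with and without that library. Otc, a urea cycle enzyme, had 218, 243 and 214 FPKM, against 187, 175 and 139 FPKM (log2 fold change 0.52, or 0.55 without that library), and Cps1, the first enzyme of that cycle, had 514, 483 and 600 FPKM, against 422, 505 and 308 FPKM. For Cps1 early weaned replicate 2 lay below control replicate 2 in FPKM. Control replicate 3 was the lowest library for Otc, Cps1 and Bckdhb, and the median of the list without it was 0.26.

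Respiratory chain genes showed small differences, mostly of 1 sign. Of 25 nuclear-encoded genes 24 were higher, with a median of 0.23, or 0.28 without control replicate 2. On the scale of log2(FPKM + 1) the median was 0.14, and that of the mitochondrially encoded genes 0.12. The groups did not overlap in 10 of them, or in 21 without that library, each time on the higher side, against 9.55% and 14.6% of all genes. Sdha, the flavoprotein of succinate dehydrogenase, had 121, 141 and 135 FPKM, against 108, 110 and 114 FPKM in controls, a log2 fold change of 0.34 (SE 0.15, edgeR adjusted p = 0.793), with and without control replicate 2. Atp5f1a, a subunit of the ATP synthase, had 273, 312 and 303 FPKM, against 240, 262 and 237 FPKM. Of 13 mitochondrially encoded genes 11 were higher, with a median of 0.21, or 0.22 without control replicate 2, and 6 had every early weaned library above every control, against 9.55% of all genes. Mt-nd4l, a subunit of complex I, had 3059, 2521 and 2734 FPKM, against 2392, 2015 and 2087 FPKM (log2 fold change 0.44, or 0.39 without control replicate 2). Hepatocyte markers lay closer to 0, with a median of 0.08 over 8 genes (−0.01 on the log2(FPKM + 1) scale, and 0.06 without control replicate 2). Cytosolic ribosomal protein genes had −0.01 over 28, with 12 higher and 16 lower, but without control replicate 2 they had 0.09, with 24 higher and 4 lower.

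Markers of liver sinusoidal endothelium were lower after early weaning in all 11 genes tested, with a median log2 fold change of −0.62, or −0.78 without control replicate 2. In 5 of them every early weaned library was below every control, or in all 11 without that library, against 9.19% and 15% of all genes. None passed edgeR's test, 7 had an unadjusted p below 0.05, and DESeq2 called Cdh5 and Ehd3. Cdh5, the cadherin of endothelial junctions, had 4.10, 4.37 and 2.70 FPKM in early weaned livers, against 7.42, 6.10 and 6.16 FPKM in controls (log2 fold change −0.73, SE 0.17, edgeR adjusted p = 0.48, or −0.78 without control replicate 2). Ehd3, a membrane trafficking gene of these cells, had 15.1, 17.9 and 13.5 FPKM, against 29.96, 23.6 and 34.3 FPKM (log2 fold change −0.83, SE 0.21, edgeR adjusted p = 0.547, or −0.96 without that library). The scavenger receptor genes Stab1 and Stab2 and the hyaluronan receptor gene Lyve1 had log2 fold changes of −0.52, −0.88 and −0.62, or −0.59, −1.12 and −0.78 without that library. The summed level of the 11 markers was 79.1, 95.5 and 63.6 FPKM in early weaned livers, against 139, 97.5 and 148 FPKM in controls. The lowest control, replicate 2, was thus close to early weaned replicate 2, and over leaving out each d63 library the median ran between −0.78 and −0.48.

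Matrix genes were mostly lower too. Of 19 collagen and matrix genes 15 were lower, with a median of −0.37, or −0.48 without control replicate 2. In 5 of them every early weaned library was below every control, or in 9 without that library, against 9.19% and 15% of all genes. The basement membrane collagens Col4a1 and Col4a2 had log2 fold changes of −0.52 and −0.56, or −0.59 and −0.63 without that library. Col4a1 had 5.92, 5.82 and 4.71 FPKM, against 7.86, 7.59 and 9.66 FPKM in controls, and DESeq2 called it with and without control replicate 2 (adjusted p = 0.0247 and 0.0435). The fibrillar Col3a1 differed less, with 60.2, 47.6 and 47.7 FPKM, against 54.4, 56.0 and 67.9 FPKM. Markers of stellate cells, the main fibrillar collagen source of liver, were 5 higher and 5 lower of 10, with a median of −0.10 with and without control replicate 2.

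Leukocyte markers were lower too, but control replicate 1 carried much of that difference. The 12 tested markers of T and NK cells were all lower, with a median of −0.83, or −1.03 without control replicate 2, and in 5 every early weaned library was below every control, or in 10 without that library, against 9.19% and 15% of all genes. Their summed level was 12.7, 13.3 and 12.6 FPKM in early weaned livers, against 29.6, 17.9 and 19.5 FPKM in controls. The median of the list was −0.60 without control replicate 1. Gzmb, a granzyme of killer cells near the limit of detection, had no counts in the early weaned libraries, against 0.39, 0.20 and 0.12 FPKM in controls. Kupffer cell markers were lower in all 11 cases with a median of −0.45, which was −0.53 without control replicate 2 and −0.12 without control replicate 1. Their summed level was 335, 448 and 455 FPKM, against 844, 484 and 424 FPKM, so that replicate 1 alone stood far above. The same library held the antigen presentation genes high. Cd74, the class II invariant chain, had 132, 101 and 68.2 FPKM, against 434, 127 and 91.7 FPKM, and the median of 22 such genes was −0.71, or −0.75 without control replicate 2, but −0.24 without control replicate 1. Many of them are RT1 genes of close sequence, between which reads could be split. B cell markers (7 of 7 lower, median −1.0) and neutrophil and monocyte markers (6 of 6, −0.96) came to −0.49 and −0.18 without control replicate 1, and to −0.72 and −1.37 without control replicate 2.

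Erythroid transcripts, which show blood left in the tissue, differed more within than between groups. Their summed level was 3707, 921 and 1007 FPKM in early weaned livers, against 2298, 662 and 8719 FPKM in controls. The median of the 7 genes was −0.95, or −1.41 without control replicate 2, and without control replicate 3 it was 0.51. Early weaned replicate 1 had the second highest sum of the 6 libraries and no Hba-a3 count.

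**Figure D4:**
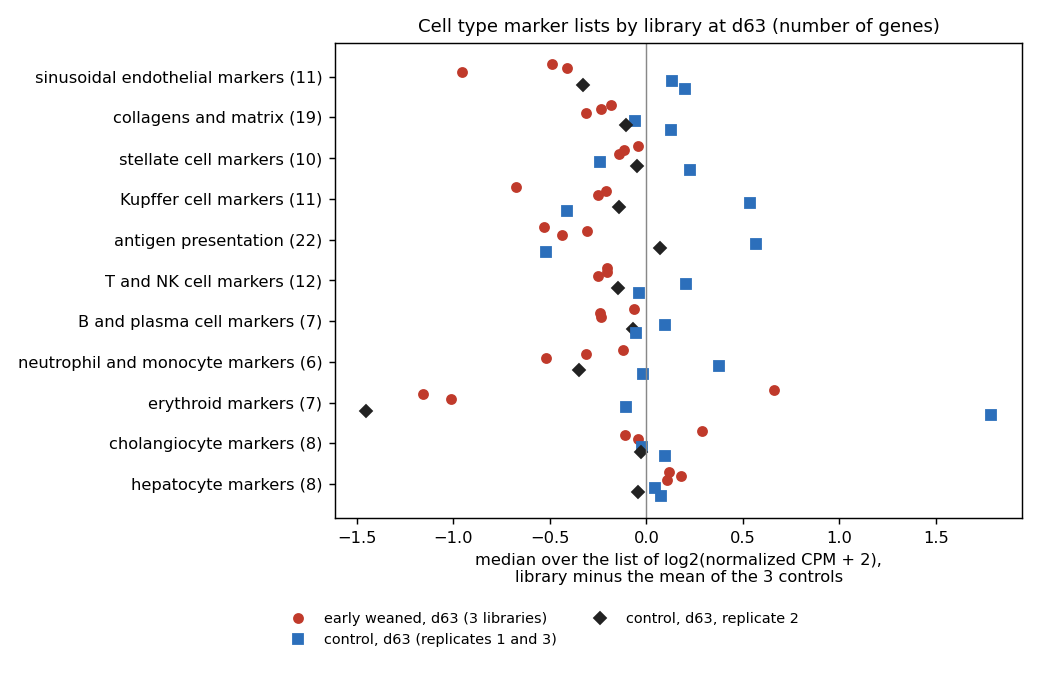
Median of each cell type marker list by library, as log2(normalized CPM + 2) minus the mean of the 3 controls; the number of genes tested stands in brackets. Early weaned libraries are red circles, control replicates 1 and 3 blue squares and control replicate 2 black diamonds; the endothelial median is −0.49, −0.41 and −0.96 in early weaned livers, against 0.13, −0.33 and 0.20 in controls, and control replicate 1 stands highest for Kupffer cell and antigen presentation genes.

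The medians of the sex-biased gene lists depended on control replicate 2. Female-biased liver genes had a median log2 fold change of −3.32 over 9 genes, which came to −0.52 without that library, and male-biased genes had 0.82 over 10 genes, which came to 0.33. Cyp2c12 had a log2 fold change of −3.66 with that library and 0.14 without it. Cux2, Trim24 and A1bg stayed without overlap on the lower side when it was left out, since both other controls lay above the early weaned livers. Trim24 had 0.78, 0.95 and 0.81 FPKM in early weaned livers, against 3.11 and 1.07 FPKM in control replicates 1 and 3. Igf1, the growth factor that growth hormone induces in liver, had 151, 148 and 127 FPKM, against 184, 120 and 183 FPKM in controls. Its groups overlapped through control replicate 2 alone, and its log2 fold change was −0.10 with that library and −0.28 without it. Of 18 genes of the growth hormone axis 14 were lower, with a median of −0.25, or −0.20 without control replicate 2, and between −0.41 and −0.08 over leaving out each d63 library.

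**Figure D5:**
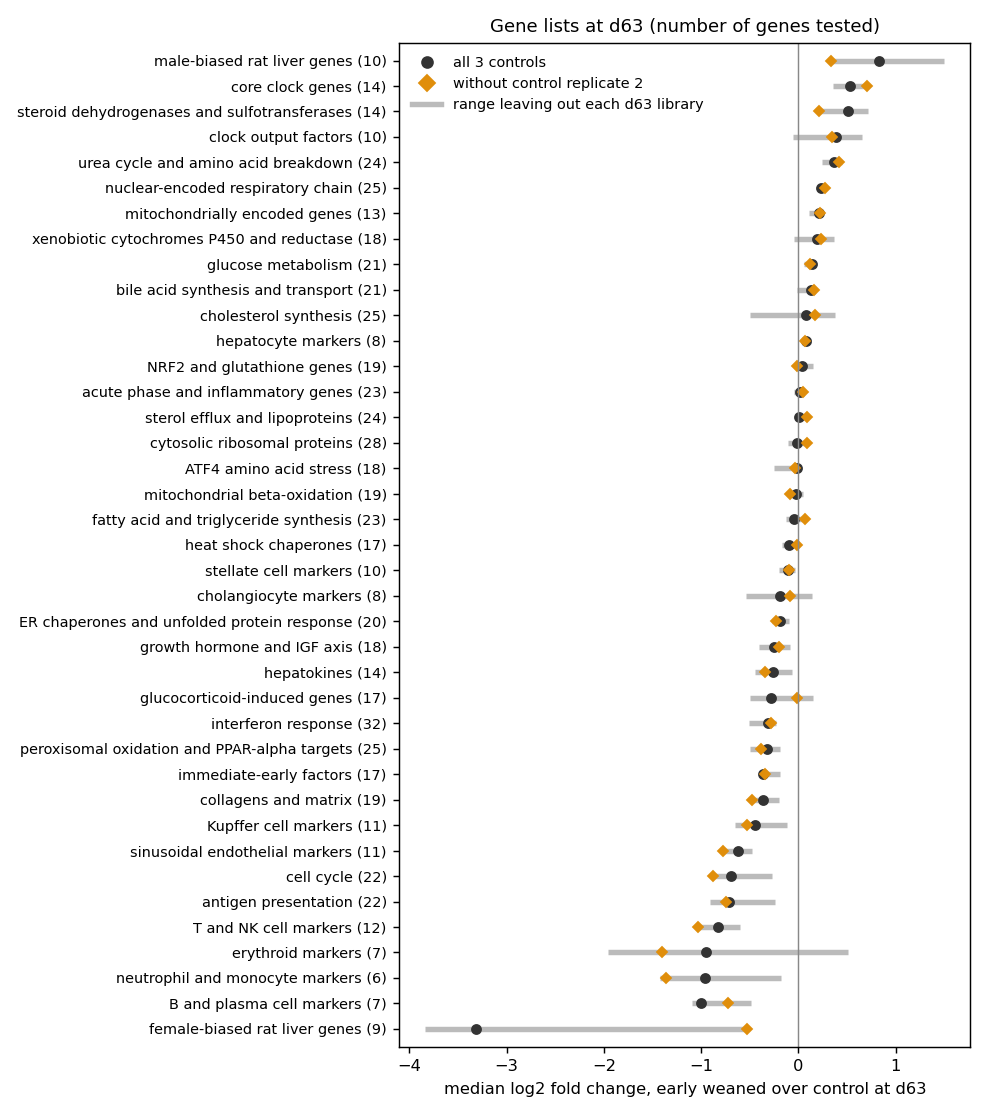
Median log2 fold change of early weaned over control d63 livers for 39 gene lists with at least 5 genes tested, with all 3 controls (black circles), without control replicate 2 (orange diamonds) and as the range when each d63 library is left out in turn (grey bars). The female-biased list moves to −0.52 without control replicate 2, against −3.32 with it. Its bar stays on 1 side of 0. So do the bars of the core clock, amino acid breakdown, respiratory chain and endothelial lists and of many others.

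Set against the contrast at d23, which shares no library with it, the d63 contrast differed in 1 of 15416 genes (0.00649%) by edgeR's test, and 727 (4.72%) had an unadjusted p below 0.05. The called entry, AABR07070810, has no gene name in the table. It had 80.2, 55.1 and 65.9 FPKM in early weaned livers, against 74.5, 55.05 and 67.4 FPKM in controls at d63, so it was level at this age. Its d63 log2 fold change exceeded that at d23 by 2.27 (SE 0.25, adjusted p = 0.0319), and the d23 value was −2.16, with 30.3, 31.6 and 26.9 FPKM in early weaned livers, against 123, 153 and 114 FPKM in controls at that age. Zbtb16 had a difference between the ages of −5.05 (SE 0.83, edgeR adjusted p = 0.296), with a d23 log2 fold change of 0.61. Cd274, which encodes PD-L1, had the smallest edgeR adjusted p after AABR07070810, at 0.0736. At d63 it had 1.39, 1.03 and 1.09 FPKM in early weaned livers, against 1.37, 1.75 and 1.31 FPKM in controls, and at d23 no library exceeded 0.06 FPKM, so no fold change is given. Cry1 and Per2 had differences between the ages of 1.74 and 1.56, with d23 log2 fold changes of 0.06 and 0.11, and neither difference passed (edgeR adjusted p = 0.975 for both). The Y-linked Eif2s3y and Kdm5d had summed counts of 0 and 2 in d23 early weaned replicates 2 and 3. In d23 early weaned replicate 1 the sum was 2733, and in the d23 controls 2319 to 2595. The part of this imbalance in the Zbtb16, Cd274, Cry1 and Per2 differences was not tested beyond a fit without the libraries low in these counts. The values of that fit for these genes are not given here.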

How the data were processed

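Whole liver RNA of Wistar rats was extracted with a column kit and made into libraries with a SMARTER mRNA-seq kit, per the labels' protocols. For the Wistar samples 1 table was deposited, holding the authors' estimated counts, written as whole numbers, and their FPKM for each gene, per the file headers. About 4 count units were taken to stand for 1 fragment, and the floors given in fragments rest on that setting. Low counts were not all multiples of 4, as for Aoc1 with 7, 21 and 8 units in early weaned d63 livers. Mouse builds (GRCm38, mm10) appear in the submitters' processing notes, while the table's gene identifiers are of rat. Its rat build, the aligner, the counter and strand use were not given in the sources used here. No column (0) lacked a sample.

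Counts were tested with edgeR 4.0.16 (quasi-likelihood, TMM scaling, filterByExpr with a minimum of 10, Benjamini-Hochberg adjustment) in R 4.3.3, fitted over all 12 Wistar libraries with 1 mean per group and no replicate block. Both contrasts, and each result without control replicate 2, come from that design. Alternatives used DESeq2 1.42.0, limma 3.58.1 on log2(FPKM + 0.1) and log2(FPKM + 1), other filters and scalings, and each library left out in turn. The steps were tested on simulated data. The 53165564 to 71638683 count units per d63 library set the precision of low genes, and a floor of 3 fragments (12 units) covers counting error only.

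Named genes are the 10 of smallest p in each direction with a mean of at least 1 FPKM in a group and groups that do not overlap, with all controls and without control replicate 2, those furthest from the other libraries in control replicate 2, the 3 of smallest p per list, and the 5 of smallest p per direction for the difference between ages. Further list members were named after their values were seen. The members and the 41 gene lists (705 symbols, 639 tested) were chosen with earlier results of these data known. Promoters are from RefSeq on build GRCr8, which is not known to be the build of the table's coordinates. Some genes that this rule names are not reported here.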

Additional observations from a re-analysis of the deposited data

Results flagged for a closer look

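The entry AABR07070810 was singled out because the effect of early weaning on it differed between the 2 ages by a test of that difference. Its log2 fold change at d63 exceeded that at d23 by 2.27 (SE 0.25, edgeR adjusted p = 0.0319). It was also called when any early weaned d63 library or d23 control replicate 3 was left out, and not when any other Wistar library was. The replicate block also ended the call (difference 2.27, edgeR adjusted p = 0.0527). The d63 groups overlapped, and at d23 all 3 early weaned livers, at 26.9 to 31.6 FPKM, lay below all 3 controls, at 114 to 153 FPKM. At d23 early weaned replicates 2 and 3 had summed counts of 0 and 2 for Eif2s3y and Kdm5d, as control replicate 2 had 0 at d63. With these 3 libraries left out the difference was 2.14 and was not called (edgeR adjusted p = 0.373).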

How the results depend on the processing

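With 15416 genes tested and 0 called at d63, other settings called few genes by edgeR or limma. DESeq2 called 89, and 57 without control replicate 2. limma on log2(FPKM + 0.1) called 2 (Hba-a3 and Zbtb16), the replicate block 1 (Akr1b7), the d63 libraries alone 2 (LOC103692171 and LOC100910528), the same without control replicate 2 called 3 (those and Tor3a), and libraries with counts of Eif2s3y and Kdm5d only called 1 (LOC100910528). Leaving out 1 library at a time gave 0 to 3 calls: NEWGENE_1308171, Pdia5 and Lpl without early weaned replicate 1, Ceacam4, AABR07051501 and LOC100910446 without early weaned replicate 3, Adgrg2, RGD1359290 and AABR07048280 without control replicate 1, and Hba-a3 without control replicate 2. For the difference between ages, 1 gene was called. It was 45 with DESeq2, 60 with DESeq2 without control replicate 2, 2 with limma on log2(FPKM + 0.1) and 2 on log2(FPKM + 1), 0 with the replicate block, 2 with the Y-linked-gene restriction, and 0 to 4 leaving out 1 library. The cause was not tested. These small sets were named after their values were seen, and the settings that combine the loss of control replicate 2 with another tool, and the restriction by Y-linked counts, were chosen after seeing the data. The number of lists with a median above 0 was 15 of 39 and ran from 11 to 17. Of 780 list medians under other settings, 112 moved by more than the replicate spread and 49 changed sign. Of 1957 log2 fold changes of 98 named genes under other settings, 68 passed the threshold and 18, of 9 genes, changed sign, but 69 of the genes were apart with all controls, so most signs were fixed by the choice of genes, and with 0 genes called the threshold shows no stability. With the d63 libraries alone and without control replicate 2, with DESeq2 without it, and with the Y-linked-gene restriction, Cyp2c12 came to 0.14, 0.15 and 0.14, Mup5 to −0.0404, −0.0336 and −0.0407, and Slc22a8 to −0.12, −0.11 and −0.12. Over leaving out 1 library the sign also turned, with log2 fold changes of −4.22 to 0.14 for Cyp2c12, −0.0405 to 0.989 for Mup5, −0.12 to 0.987 for Slc22a8, −0.0146 to 0.235 for AABR07070810, −0.11 to 0.889 for Fasn, −2.002 to 0.34 for Hba-a1, −0.279 to 0.0116 for Igf1, −0.397 to 0.0456 for Nr1d1 and −0.537 to 0.0167 for Ppara. The labels do not say whether replicate numbers pair the samples. The correlations of same-numbered deviations between the d63 groups were −0.19, −0.10 and −0.00, which does not settle the pairing. With 3 libraries a group and a common biological coefficient of variation of 0.404, small differences were not detectable, and genes of few fragments rest on little depth.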

Other observations

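Cdkn1a, the cell cycle inhibitor p21, had 0.62, 1.03 and 1.14 FPKM in early weaned livers, against 20.2, 6.13 and 3.38 FPKM in controls, with a log2 fold change of −3.32 (SE 0.76, edgeR adjusted p = 0.48), or −3.58 without control replicate 2. The groups did not overlap, control replicate 1 was highest, and DESeq2 called the gene with and without control replicate 2 (adjusted p = 0.000366 and 0.000954). Of 22 cell cycle genes 16 were lower, with a median of −0.70, or −0.87 without control replicate 2, but −0.27 without control replicate 1. Their summed level was 21.59, 31.35 and 29.06 FPKM in early weaned livers, against 54.8, 33.2 and 36.7 FPKM in controls. The proliferation marker Mki67, at a low level throughout, had 0.04, 0.09 and 0.07 FPKM, against 0.34, 0.24 and 0.17 FPKM in controls. Genes of endoplasmic reticulum chaperones and of the unfolded protein response were lower in 16 of 20 cases. Their median log2 fold change was −0.19, or −0.23 without control replicate 2. In 9 of them every early weaned library was below every control, against 9.19% of all genes. Calr, a calcium-binding chaperone, had 234, 310 and 305 FPKM, against 381, 355 and 458 FPKM in controls.

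Among secreted acute phase proteins, Orm1 had 602, 746 and 915 FPKM in early weaned livers, against 404, 329 and 234 FPKM in controls, a log2 fold change of 1.32 that DESeq2 called with all controls (adjusted p = 0.0213). Hp, haptoglobin, had 9257, 9005 and 9922 FPKM, against 7066, 5648 and 5930.2 FPKM. In both the groups did not overlap, while the 23 genes of that list were split, 13 higher and 10 lower. Gpx2, a glutathione peroxidase, had 0.58, 0.27 and 0.45 FPKM, against no counts in the 3 controls, at least 2.76-fold higher over a floor of 3 fragments per library. Klf2, a flow-responsive factor, had 0.79, 0.99 and 0.99 FPKM, against 2.69, 2.05 and 1.96 FPKM (log2 fold change −1.17). The unnamed entry LOC100910528 had 10.3, 9.71 and 7.83 FPKM in early weaned livers and no counts in controls. LOC103692171 had no counts in early weaned livers, against 8.63, 10.4 and 8.22 FPKM in controls. Such entries can share reads with a near-identical copy, and this was not tested.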
